A study of Mus musculus with 17 samples.

Results

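Transcripts of 7 genes of thyroid hormone action were followed in the heat-producing fat depot of mice, brown adipose tissue (BAT). They were the deiodinase genes Dio1, Dio2 and Dio3, the receptor genes Thra and Thrb, and the transporter genes Slc16a10 and Slco1c1. The genes were taken by symbol from a table of RNA sequencing counts that held 55414 genes. Of the 7 members, 4 passed a filter on low counts that kept 17717 genes for testing, and Dio1, Dio3 and Slco1c1 did not.

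Thyroxine, the main product of the thyroid, has little activity until an outer-ring iodine is removed, and the enzyme encoded by Dio2 does this inside the cell to give triiodothyronine. Triiodothyronine binds nuclear receptors encoded by Thra and Thrb, which pair with retinoid X receptors on DNA, while the enzyme encoded by Dio3 inactivates both hormones. In rodent brown fat, noradrenaline from sympathetic nerves raises cAMP and with it Dio2 transcription, and local triiodothyronine is needed for full heat production.

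The mice were C57BL/6J, a common inbred strain, and were housed at 22 °C. Knockout mice carried the conditional deletion named Acbp BAd-KO, which removes acyl-CoA-binding protein (gene symbol Dbi) from brown adipocytes, and the comparison mice were wild-type. The groups were 5 knockout and 5 wild-type samples fed for 12 weeks a high-fat diet (HFD) with fat at 45% of its calories, and 3 knockout and 4 wild-type samples on standard chow. The promoter that drives the deletion, the age and sex of the mice and the time of day of collection are missing from the labels. Nor do the labels say that samples are separate animals, so the spread behind each p-value may be technical. Levels are CPM values, in which counts are divided by library size after TMM, a correction for library composition, and are given as mean ± standard deviation (SD). Differences are log2 fold changes ± standard error (SE) from edgeR's quasi-likelihood test, and calls are made where the Benjamini-Hochberg adjusted p, over all genes tested, is at most 0.05.

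Total counts ran from 60162398 to 100538712 in HFD knockout, 59976980 to 104874625 in HFD wild-type, 47165132 to 49715461 in chow knockout and 39585167 to 43884449 in chow wild-type libraries. Every knockout library held less Dbi than any wild-type library of the same diet (128 ± 21.3 against 701 ± 55.6 CPM on HFD, 97.2 ± 7.93 against 1022 ± 64.6 CPM on chow). All 14 brown adipocyte markers were detected in every library, with summed levels of 7739 to 11360 CPM. Summed levels of 16 skeletal muscle markers ran from 3.68 to 6720 CPM over the libraries and those of 16 hepatocyte markers from 4.94 to 310 CPM. The 7 thyroid gland markers summed to at most 0.216 CPM. Library numbers of the HFD and chow groups did not overlap, so diet and library run cannot be told apart. In whole tissue, fewer cells of a type and less RNA per cell cannot be told apart either.

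The Dio2 upstream sequence is shown because Dio2 carried the largest genotype difference among the 4 tested members and the cAMP input named above acts through a short DNA element. In the RefSeq promoter window of Dio2 the full cAMP response element TGACGTCA occurred once, 95 to 88 bases before the annotated start. The 250 bases before the start (GRCm38.p6, chr12:90739039-90739288, minus strand, 5′ to 3′) are given below with that element in capitals.
Dio2: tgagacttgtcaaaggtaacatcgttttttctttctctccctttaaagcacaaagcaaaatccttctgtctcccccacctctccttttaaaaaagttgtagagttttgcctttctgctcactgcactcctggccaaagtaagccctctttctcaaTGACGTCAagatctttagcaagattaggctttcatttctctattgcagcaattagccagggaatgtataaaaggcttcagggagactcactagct
The same letters were present in 1.55% of the 32851 promoter windows in the RefSeq table. The shorter motif TGACG, which the full element contains on both strands, was present in 17.8% of windows. The thyroid hormone response motif AGGTCA was present in 14.0%, and the direct repeat of AGGTCA with 4 bases between its copies in 0.0152%, and neither was found in the Dio2 window.

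Thrb is the other member with a match, and its hits are shown because Thrb differed with diet. In its window TGACG lay 56 to 52 bases and AGGTCA 184 to 179 bases before the start, both on the sense strand (GRCm38.p6, chr14:17660892-17660920 and chr14:17660764-17660793, plus strand), with the motif in capitals.
Thrb, TGACG: ggccggccggcgTGACGcggcgggattaa
Thrb, AGGTCA: aggagagttgacAGGTCAagggaatagggc
RefSeq windows were matched for 6 of the 7 members, and Thra was not among them. Both strands were searched for each motif, and a match is a description of letters, not of a bound site.

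Dio2 (ENSMUSG00000007682.8, chromosome 12) was higher in knockout than in wild-type BAT on chow and had the largest difference of the 4 tested members. Chow knockout libraries 2, 3 and 4 held 325, 345 and 397 CPM, against 48.7, 129, 142 and 55.9 CPM in chow wild-type libraries 1 to 4. The groups did not overlap, and the 3 chow knockout libraries were the 3 highest of all 17. On HFD, knockout libraries 1 to 5 held 171, 163, 109, 188 and 265 CPM, against 48.3, 84.7, 68.1, 136 and 191 CPM in HFD wild-type libraries 1 to 5. These groups overlapped, since HFD wild-type 4 and 5 stood above HFD knockout 3.

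**Figure D1:**
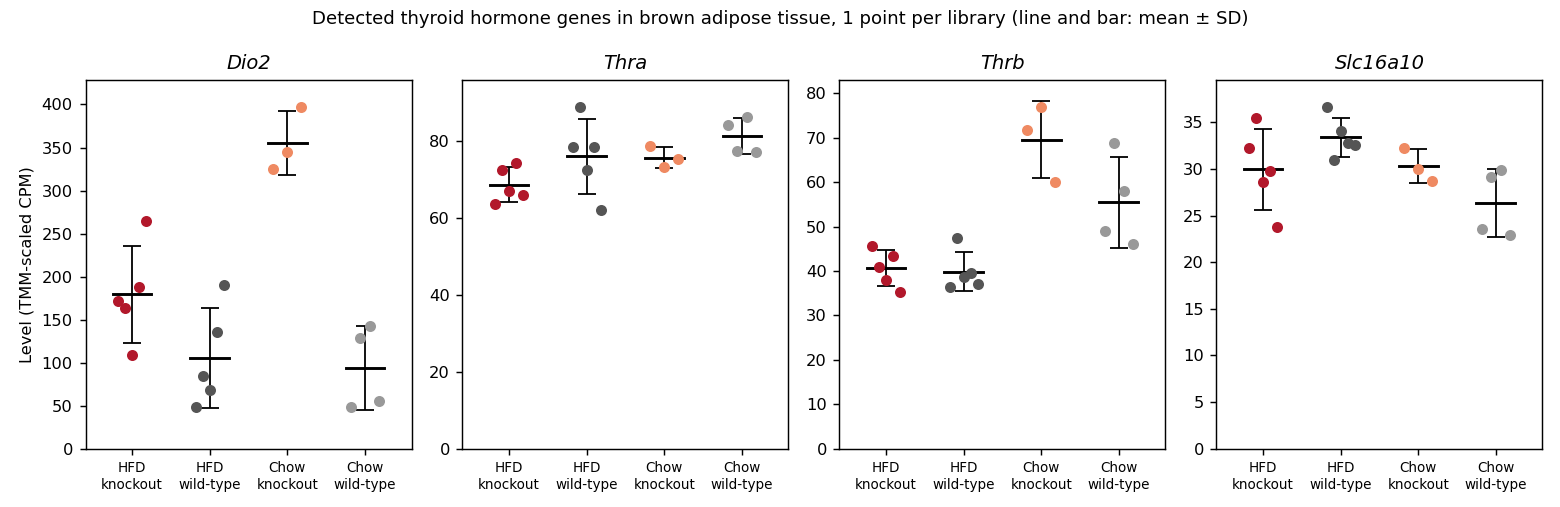
Level of each tested member in every library, in CPM on linear axes that start at 0, in the order HFD knockout, HFD wild-type, chow knockout and chow wild-type. Each point is 1 library, and the bar and whiskers are the group mean ± SD. For Dio2 the 3 chow knockout points (325 to 397 CPM) stand above all others, and for Thrb the 10 HFD points (35.3 to 47.4 CPM) sit below the 3 chow knockout points (60.0 to 76.9 CPM).

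On chow Dio2 rose 3.79-fold in the knockout (log2 fold change 1.92 ± 0.44, adjusted p = 0.0458), with a 95% confidence interval of 2.00 to 7.17-fold. It ranked at 160 of the 17717 genes by p, near the edge of the calls. Dio2 was the 1 member called there of the 4 tested, and 1.06% of all genes were called. At an unadjusted p under 0.05 edgeR had 2 of the 4 members (Dio2 and Thrb), against 15.2% of all genes. The Dio2 groups did not overlap, which held for 12.8% of the genes tested. Beside this, the 16 hepatocyte markers were all higher in the chow knockout (1 called, median log2 fold change 5.70), with sums of 21.6 to 92.0 CPM in knockout and 16.7 to 19.1 CPM in wild-type libraries and albumin (Alb) at 0 in wild-type 3. The 16 muscle markers were all lower (0 called, median -1.21), with sums of 3.68 to 997 CPM in knockout and 285 to 1652 CPM in wild-type libraries. Of 6 tested glia and nerve markers all were lower (1 called, median -0.34), and of 7 endothelial markers 5 were lower (0 called, median -0.05). Of 14 brown adipocyte markers 6 were higher and 8 lower (0 called, median -0.03). With muscle and hepatocyte scores in the model Dio2 was not called, at 1.63 ± 0.44 (adjusted p = 0.151). The chow call passed in 6 of 16 alternatives. It ended without chow knockout 2, 3 or 4 (adjusted p = 0.0771, 0.129 and 0.145) and without chow wild-type 1, 2 or 4 (0.106, 0.0735 and 0.0807). In each of these fits the log2 fold change lay between 1.71 and 2.11. Chow wild-type 1 and 2 came from an earlier run of library numbers, and within the later run alone the value was 1.84 (adjusted p = 0.207).

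Spread within a group differed as well as the mean. The coefficient of variation of Dio2 was 31.3% in HFD knockout, 54.6% in HFD wild-type, 10.5% in chow knockout and 51.6% in chow wild-type libraries. The highest library held 2.42, 3.95, 1.22 and 2.92 times the lowest in these 4 groups, in the same order. These are descriptions over 3 to 5 libraries and the spreads were not compared by a test. Dio2 counts ran from 1730 to 28940 per library, so counting error is small beside this spread.

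On HFD the knockout level averaged 179 ± 56.2 CPM and the wild-type level 105 ± 57.5 CPM. The log2 fold change was 0.77 ± 0.36, with a 95% interval of 0.00256 to 1.53, and did not pass after adjustment (adjusted p = 0.391). No member was called on HFD, where 0.536% of all genes were. At an unadjusted p under 0.05 there was 1 of 4 by edgeR (Dio2), against 12.7% of all genes, and DESeq2 and limma-voom called 0 members. Without the 4 HFD libraries rich in muscle transcripts (wild-type 1, knockout 2, 4 and 5) the Dio2 value was 0.22. Their limit, a muscle sum above 1000 CPM, was chosen after seeing the data. Of the knockout libraries only 1 and 3 remained. The highest knockout Dio2 level (265 CPM) and the lowest wild-type one (48.3 CPM) were among those left out. Over the 5 HFD knockout and 5 HFD wild-type libraries, muscle markers were higher in the knockout in 16 of 16 cases (0 called, median 1.44), with sums of 6.21 to 6720 CPM in knockout and 4.55 to 4182 CPM in wild-type libraries. Hepatocyte markers were likewise higher in 16 of 16 (0 called, median 0.98), and the 7 endothelial markers were all lower (1 called, median -0.33), with sums of 406 to 514 CPM in knockout and 509 to 575 CPM in wild-type libraries. Of 14 brown adipocyte markers 9 were higher and 5 lower in the knockout (1 called, higher, median 0.14). The part of these cell types in the Dio2 value was not tested beyond the fits given for muscle and hepatocyte markers.

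The genotype effect on Dio2 was smaller on HFD than on chow by a log2 value of -1.16 ± 0.56, which did not pass (95% interval -2.34 to 0.03, adjusted p = 0.495). The interval includes no difference, and these data do not show that the effect depends on diet. No member was called in the interaction by edgeR (1 of 4, Slc16a10, at an unadjusted p under 0.05, against 10.4% of all genes), DESeq2 or limma-voom, where edgeR called 0.0903% of all genes. Averaged over both diets, Dio2 rose 2.54-fold in the knockout (1.34 ± 0.28, adjusted p = 0.0204, interval 1.68 to 3.84-fold). It was the 1 of 4 members called in the averaged comparison, which called 2.86% of all genes and uses the same libraries as the comparisons within each diet. In that comparison the endothelial markers were lower in 7 of 7 (1 called, median -0.18), the hepatocyte markers higher in 16 of 16 (1 called, median 3.32) and the glia and nerve markers lower in 5 of 6 (1 called, median -0.32). Of 14 brown adipocyte markers 8 were higher and 6 lower (0 called, median 0.07). The averaged Dio2 call passed in 24 of 29 alternatives. It ended with the marker scores in the model (1.17, adjusted p = 0.0781) and within the later run of chow wild-type libraries (1.31, adjusted p = 0.0782). It also ended without chow knockout 3 (1.35, adjusted p = 0.0536) and chow knockout 4 (adjusted p = 0.058) and without the 4 muscle-rich HFD libraries (1.07, adjusted p = 0.171). That limit of 1000 CPM was applied to HFD libraries alone, and chow wild-type 1 and 3 (1418 and 1652 CPM) stayed in.

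HFD and chow did not separate Dio2 in wild-type mice. The level was 105 ± 57.5 CPM on HFD and 93.8 ± 48.4 CPM on chow, a log2 fold change of 0.17 ± 0.38 (adjusted p = 0.773) whose interval of 0.642 to 1.97-fold leaves room for changes in both directions. In the knockout, every HFD library was below every chow library, as for 16.1% of all genes tested. The log2 fold change was -0.99 ± 0.41 (adjusted p = 0.0848), a value that was not called, with an interval of -1.85 to -0.13. It was called when only the HFD knockout and chow knockout groups entered the fit (-0.98, adjusted p = 0.0141). All 16 skeletal muscle markers were higher on HFD in the knockout (0 called, median 2.42). Their part in the Dio2 value was not tested beyond the alternative fits.

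**Figure D2:**
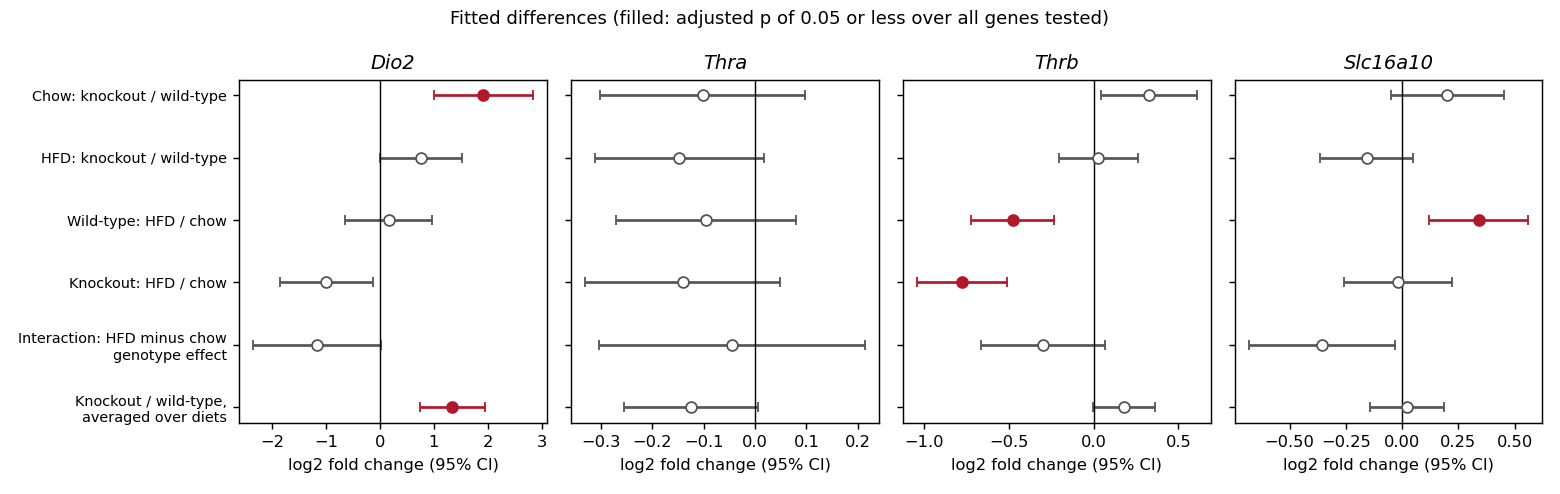
Log2 fold changes of the 4 tested members in the 6 comparisons (x axis, with 95% confidence intervals as lines), knockout over wild-type or HFD over chow. Filled points were called at an adjusted p of 0.05 or less. Dio2 is filled in the chow comparison (1.92) and in the average over diets (1.34), Thrb in both diet comparisons (-0.48 and -0.78) and Slc16a10 in the diet comparison in wild-type mice (0.34).

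Dio1, which makes triiodothyronine mainly in liver and kidney, was almost absent. HFD knockout libraries 1 to 5 held 4, 1, 0, 9 and 44 counts, against 0, 4, 5, 2 and 29 counts in HFD wild-type libraries. Chow knockout libraries 2 to 4 held 0, 1 and 0 counts and all 4 chow wild-type libraries held 0. Over the 167515793 counts of the chow wild-type libraries this allows up to 0.0179 CPM before TMM scaling, counting error only. The libraries with the most Dio1 were also those richest in hepatocyte transcripts. HFD knockout 5, HFD wild-type 5 and HFD knockout 4 had 44, 29 and 9 Dio1 counts and hepatocyte sums of 310, 247 and 230 CPM. In the other 14 libraries the sum was at most 92.0 CPM and Dio1 had at most 5 counts. Whether hepatocyte RNA gave the Dio1 counts was not tested.

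**Figure D3:**
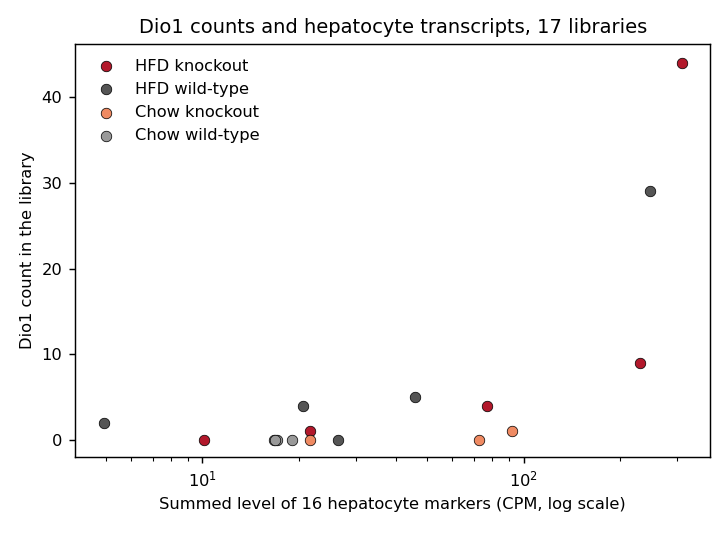
Dio1 counts per library (y axis, linear) against the summed level of 16 hepatocyte markers in the same library (x axis, CPM, log scale), with 1 point per library coloured by group. The 3 libraries with sums of 230 to 310 CPM hold 9 to 44 Dio1 counts, and the other 14 hold 0 to 5.

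Dio3, whose enzyme inactivates thyroid hormone, had 2 counts in all over the 5 HFD knockout libraries and 5 over the 5 HFD wild-type libraries. Chow knockout libraries held 0, 0 and 4 counts and chow wild-type libraries 0. Its antisense neighbour Dio3os had 0 to 5 counts per library. Slco1c1, a thyroxine transporter best known from brain vessels, had 1 to 8 counts in HFD knockout, 1 to 5 in HFD wild-type, 1 to 2 in chow knockout and 0, 0, 0 and 1 in chow wild-type libraries. A fit with no filter, over 29418 genes, called none of Dio1, Dio3 and Slco1c1 in any comparison (edgeR adjusted p of 0.14 to 1). At an unadjusted edgeR p under 0.05 stood Dio1 for diet in wild-type mice and Slco1c1 for genotype averaged over diets. The share of all genes under that limit in the fit with no filter is not given here, so these hits are descriptions. Of the 40 Dio1 counts in HFD wild-type libraries, 29 were in library 5, with a hepatocyte sum of 247 CPM. Chow wild-type libraries held 0. At the counts of Dio1, Dio3 and Slco1c1 a difference was not detectable, which does not make the genes equal between groups.

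To compare levels between genes, CPM was divided by the length of each gene's merged exons in kilobases, taken from a GRCm38 annotation. Per kilobase, Dio2 stood at 30.8 ± 9.66 in HFD knockout, 18.1 ± 9.90 in HFD wild-type, 61.1 ± 6.43 in chow knockout and 16.1 ± 8.32 in chow wild-type libraries. Thra stood at 14.9 ± 0.97, 16.5 ± 2.12, 16.4 ± 0.60 and 17.6 ± 1.02 CPM per kilobase in the same order. Dio2 was thus the most abundant member in HFD knockout and chow knockout. In HFD wild-type and chow wild-type the Dio2 and Thra means lay within the SD of Dio2. Thrb followed at 5.49, 5.39, 9.40 and 7.49 CPM per kilobase and Slc16a10 at 4.07, 4.54, 4.12 and 3.59, again in the same group order.

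Thra (ENSMUSG00000058756.14, chromosome 11) encodes the receptor form that predominates in many peripheral tissues, and its transcript varied little between groups. It averaged 68.7 ± 4.48 CPM in HFD knockout, 76.1 ± 9.80 in HFD wild-type, 75.8 ± 2.76 in chow knockout and 81.3 ± 4.71 in chow wild-type libraries. The groups overlapped in each of the 4 pairwise comparisons, and coefficients of variation were 3.65% to 12.9%. The genotype effect was -0.10 ± 0.09 on chow (adjusted p = 0.671) and -0.15 ± 0.08 on HFD (adjusted p = 0.458). Intervals were 0.811 to 1.07-fold on chow and 0.805 to 1.01-fold on HFD, so a change of 1.5-fold lies outside them. The diet effect was -0.10 ± 0.08 in wild-type (adjusted p = 0.403) and -0.14 ± 0.09 in the knockout (adjusted p = 0.265). Scaled by library totals alone it was 0.38 in wild-type mice (adjusted p = 0.00152), where the median of all genes was 0.49, and 0.12 in the knockout (adjusted p = 0.327).

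Thra and Nr1d1, a clock repressor gene on the opposite strand, share 263 exon bases, 5.7% of Thra and 8.55% of Nr1d1. The library kit does not mark strand, so reads from the shared stretch cannot be told apart. Nr1d1 averaged 96.6 ± 26.7 CPM in HFD knockout, 84.4 ± 13.5 in HFD wild-type, 94.9 ± 9.96 in chow knockout and 140.5 ± 13.2 in chow wild-type libraries. It was 1.67-fold lower on HFD than on chow in wild-type mice (-0.74 ± 0.17, adjusted p = 0.00393) and passed in each fit but that scaled by library totals (-0.26, adjusted p = 0.211). On chow every knockout library was below every wild-type library for Nr1d1, where 12.8% of all genes had separate groups. The Nr1d1 difference was not called (-0.57 ± 0.20, adjusted p = 0.176).

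Thrb (ENSMUSG00000021779.20, chromosome 14) encodes the receptor form known in rodent brown fat for driving Ucp1 expression, and its level followed diet. HFD knockout libraries 1 to 5 held 45.6, 41.0, 38.0, 43.4 and 35.3 CPM, against 71.9, 76.9 and 60.0 CPM in chow knockout libraries 2, 3 and 4. HFD wild-type libraries 1 to 5 held 36.5, 47.4, 38.8, 39.6 and 37.2 CPM, against 49.0, 68.7, 58.0 and 46.2 CPM in chow wild-type libraries 1 to 4. The knockout groups did not overlap, and in wild-type mice only HFD library 2 reached above the lowest chow library. Thrb fell 1.71-fold on HFD in the knockout (-0.78 ± 0.12, adjusted p = 0.000408) and 1.39-fold in wild-type mice (-0.48 ± 0.12, adjusted p = 0.00546).

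Thrb was the 1 member called lower of 4 in each diet comparison, where 15.2% of all genes were called lower in wild-type mice and 13.1% in the knockout. A change with diet was therefore common among all genes. The call in the knockout passed in 20 of 20 alternatives, with values of -0.87 to -0.51. In wild-type mice it passed in 20 of 21 and was lost when libraries were scaled by their totals alone (-0.00117, adjusted p = 0.994). That scaling moved the median of all genes to 0.49, and relative to the median Thrb stood at -0.49 under either scaling. The diet effects of the knockout and wild-type mice differed by -0.30 ± 0.17 (adjusted p = 0.586), which did not pass. Cell type markers moved with diet as well. Of 14 brown adipocyte markers, 2 were called higher and 4 lower on HFD in wild-type mice (median -0.06). There 16.9% of all genes were called higher and 15.2% lower. In the knockout 1 was called higher and 1 lower (median -0.08), against 12.8% and 13.1% of all genes. In wild-type mice 13 of 16 hepatocyte markers (median 6.87), 4 of 7 endothelial markers (median 0.35) and 2 of 6 glia and nerve markers were called higher on HFD. The glia and nerve list was split, with 3 higher and 3 lower (median -0.01), and its sum, carried by S100b and Mbp, was 166 to 199 CPM on HFD and 77.9 to 106 CPM on chow. Endothelial sums were 509 to 575 CPM on HFD and 385 to 494 CPM on chow in wild-type mice. In the knockout 0 of 16 hepatocyte markers (median 1.85), 1 of 7 endothelial markers (median 0.11) and 3 of 6 glia and nerve markers were called higher, and 2 of the 6 were lower without a call. Endothelial sums there were 406 to 514 CPM on HFD and 393 to 425 CPM on chow, and glia and nerve sums 150 to 184 CPM and 63.8 to 80.6 CPM. Skeletal muscle markers were all higher on HFD in the knockout (16 of 16, 0 called, median 2.42). Their sums there were 6.21 to 6720 CPM on HFD and 3.68 to 997 CPM on chow. In wild-type mice 4 muscle markers were higher and 12 lower (0 called, median -0.29). The part of these cell types in the Thrb values was not tested beyond the alternative fits.

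Between genotypes Thrb was not called. On chow it averaged 69.6 ± 8.67 CPM in knockout libraries and 55.5 ± 10.2 CPM in wild-type libraries, a log2 fold change of 0.33 ± 0.13 (unadjusted p = 0.025, adjusted p = 0.246). The groups overlapped there, since wild-type 2 stood above knockout 4. On HFD the Thrb mean was 40.7 ± 4.11 CPM in knockout libraries and 39.9 ± 4.39 CPM in wild-type libraries (0.03 ± 0.11, adjusted p = 0.944, and -0.12 without a call under scaling by library totals). The HFD interval of 0.868 to 1.20-fold excludes a change of 1.5-fold.

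Slc16a10 (ENSMUSG00000019838.12, chromosome 10) encodes a carrier of aromatic amino acids that also moves triiodothyronine across the membrane. HFD wild-type libraries 1 to 5 held 36.6, 31.0, 34.1, 32.8 and 32.5 CPM, against 23.5, 29.2, 29.9 and 22.9 CPM in chow wild-type libraries 1 to 4. The groups did not overlap, and 13.6% of the genes tested were likewise higher in every HFD library, and 16.9% of all genes were called higher. Slc16a10 rose 1.27-fold on HFD in wild-type mice (0.34 ± 0.10, adjusted p = 0.0205), and the call passed in 18 of 21 alternatives. It ended without chow wild-type 1 (0.29, adjusted p = 0.0669) and without chow wild-type 4 (0.28, adjusted p = 0.0666). The call also ended in an alternative of another kind (adjusted p = 0.0837). The hepatocyte and endothelial markers given for Thrb rose in this comparison too, and their part in the Slc16a10 value was not tested beyond the alternative fits.

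In the knockout Slc16a10 did not differ with diet beyond the spread. HFD knockout libraries held 32.2, 35.5, 28.6, 29.8 and 23.8 CPM, against 32.2, 30.0 and 28.7 CPM in chow knockout libraries, and the groups overlapped (-0.02 ± 0.11, adjusted p = 0.924, and 0.25 without a call under scaling by library totals). The difference between the diet effects of the knockout and wild-type mice was -0.36 ± 0.15 (unadjusted p = 0.0334, adjusted p = 0.438), so the 2 genotypes are not shown to differ in it. Genotype effects were 0.20 ± 0.12 on chow (adjusted p = 0.452) and -0.16 ± 0.10 on HFD (adjusted p = 0.549).

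The lists of pathway genes below were chosen with earlier results of these data known, so their counts are descriptions. In the genotype comparisons DESeq2 called more of all genes than edgeR did, with counts given in the closing sections. Among 8 tested transporters and binders of thyroid hormone outside the members, 1 rose and 0 fell in the chow knockout, where 1.06% of all genes were called. Slc3a2, the heavy chain that brings the amino acid and iodothyronine carriers Slc7a5 and Slc7a8 to the membrane, held 63.8, 61.6 and 63.8 CPM in chow knockout, against 22.8, 24.2, 29.7 and 26.9 CPM in chow wild-type libraries. These groups lay far apart, at 2.43-fold (1.28 ± 0.12, adjusted p = 4.55e-05), and the call passed in 16 of 16 alternatives. On HFD Slc3a2 was not called by edgeR (0.35 ± 0.10, adjusted p = 0.132) but was by DESeq2 (adjusted p = 0.0308). The genotype effect was smaller on HFD by -0.93 ± 0.16 (adjusted p = 0.0388), which passed in 15 of 29 alternatives and ended without chow knockout 2, 3 or 4, chow wild-type 1 or 2, HFD knockout 1, 2 or 4, or HFD wild-type 2 (adjusted p of 0.0519 to 0.103). The list's median log2 fold change on chow was 0.15, against -0.01 for all genes tested.

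With HFD several carrier genes changed. Slc7a5 rose 3.39-fold in the knockout (1.76 ± 0.41, adjusted p = 0.00559) and 3.30-fold in wild-type mice (1.72 ± 0.37, adjusted p = 0.00228), at low levels of 0.343 to 1.43 CPM on HFD and 0.139 to 0.302 CPM on chow. Slc7a8 was likewise called higher in the knockout (1.09, adjusted p = 0.019) and in wild-type mice (1.05, adjusted p = 0.01), and its knockout call ended without chow knockout 2 or 3 (0.0706 and 0.084). Slco3a1, an organic anion transporter gene, rose in wild-type mice (0.72 ± 0.22, adjusted p = 0.0196), a call that ended without HFD wild-type 1 (0.0529) or chow wild-type 2 (0.0702). In all, 2 of 8 rose and 2 fell in the knockout (median 0.28) and 5 rose and 1 fell in wild-type mice (median 0.53), against medians of 0.03 and 0.02 for all genes. Of all genes, 12.8% were called higher and 13.1% lower with HFD in the knockout, and 16.9% higher and 15.2% lower in wild-type mice. Ttr, a plasma carrier made by liver, was among those called in wild-type mice, with 2 to 726 counts on HFD and 0 in the 4 chow libraries. Before TMM scaling, 3 counts over the chow wild-type group give a limit of 0.0179 CPM. Set against that limit, Ttr still stood above the other transporters both on chow and with HFD in wild-type mice. The list medians there therefore do not depend on its fitted value.

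DIO2 protein is turned over by ubiquitination, and the 9 genes listed for this step were all tested. In the genotype comparison on chow 0 were called by edgeR and by limma-voom (2 at an unadjusted p under 0.05, against 15.2% of all genes). DESeq2 called 2 higher. Usp33, which removes ubiquitin from DIO2, held 52.1, 53.5 and 57.3 CPM in chow knockout, against 44.5, 45.9, 45.2 and 46.2 CPM in chow wild-type libraries (0.26 ± 0.07, adjusted p = 0.0927). These ranges were separate, as for 12.8% of all genes on chow, although the difference was not called. Averaged over diets Usp33 was called by a narrow margin (0.18 ± 0.05, adjusted p = 0.047), and this call held in 5 of 29 alternatives. It ended without any 1 chow library, without HFD knockout 1, 3, 4 or 5, or without HFD wild-type 1, 2 or 3 (adjusted p of 0.0545 to 0.143). On HFD Usp33 fell 1.52-fold in the knockout (adjusted p = 1.63e-05) and 1.37-fold in wild-type mice (adjusted p = 6.58e-05), but in wild-type mice it was 0.02 under scaling by library totals. Ube2g2, a ubiquitin-conjugating enzyme gene, rose 1.29-fold with HFD in the knockout (0.37 ± 0.08, adjusted p = 0.00329). Marchf6, a ubiquitin ligase gene, fell there (-0.37 ± 0.10, adjusted p = 0.0128), and the call passed in 16 of 20 alternatives. That call ended without chow knockout 3 or 4 (0.056 and 0.0702), and the value nearest 0 was -0.11 (highest adjusted p 0.509). Ube2j1, another conjugating enzyme gene, fell there too (-0.19 ± 0.05, adjusted p = 0.015) but not without chow knockout 2 (0.0828), and turned to 0.07 under scaling by library totals. Wsb1, a ligase adaptor gene, rose with HFD in wild-type mice (0.44 ± 0.14, adjusted p = 0.0272), a call that ended without HFD wild-type 3 or 5 (0.0581 and 0.0518) and without chow wild-type 2 or 3 (0.094 and 0.0845). In all, 1 of 9 rose and 3 fell with HFD in the knockout (median -0.11), and 1 rose and 1 fell in wild-type mice (median -0.09). Over all genes 12.8% rose and 13.1% fell in the knockout, and 16.9% rose and 15.2% fell in wild-type mice, so the wild-type counts are near what all genes gave.

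**Figure D4:**
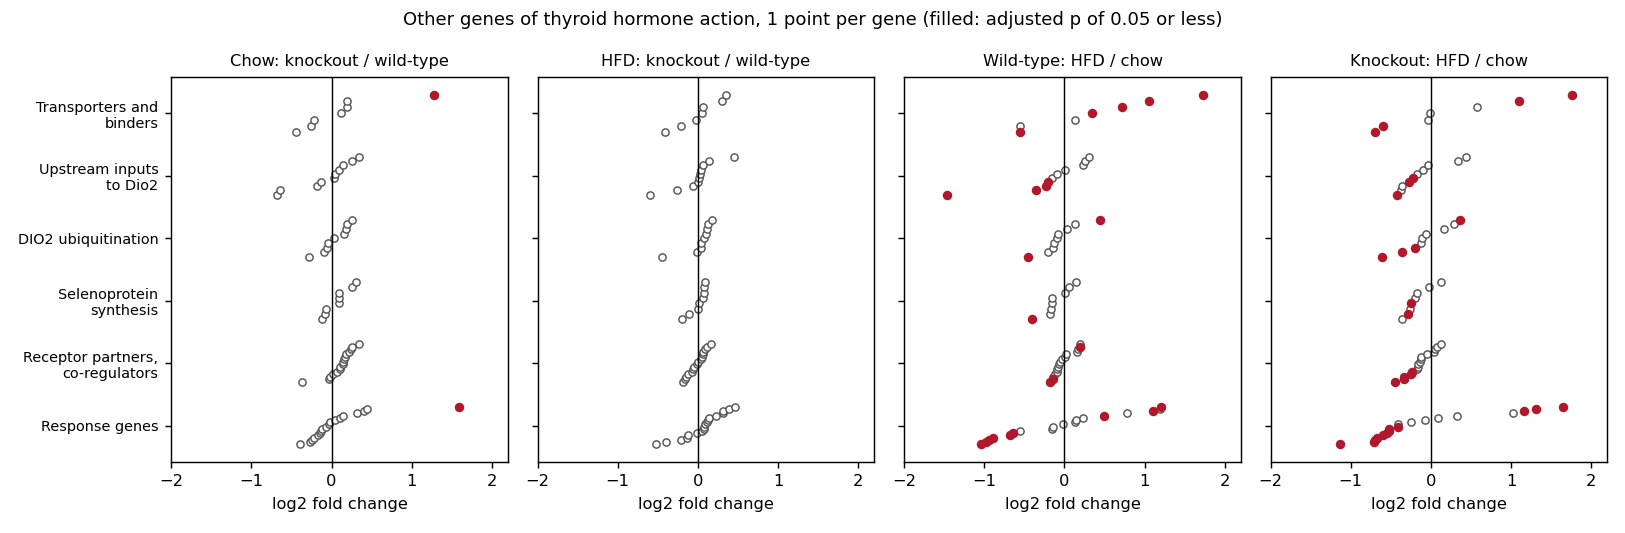
Log2 fold changes of the genes in 6 pathway lists (1 point per tested gene) in 4 comparisons, with filled points called at an adjusted p of 0.05 or less. Ttr is left off because its chow wild-type libraries were all at 0 counts. On chow the filled points are Slc3a2 (1.28) and Ppargc1a (1.59), on HFD there are none, and the diet comparisons have called genes in both directions.

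Upstream of Dio2, 10 of 11 listed receptors, cAMP signalling genes and liver X receptor genes were tested. None was called between genotypes on chow by edgeR (3 at an unadjusted p under 0.05, against 15.2% of all genes) or limma-voom. DESeq2 called 1 higher and 1 lower. Adrb1, a β-adrenergic receptor gene, fell in the knockout averaged over diets (-0.64 ± 0.12, adjusted p = 0.0151). This call passed in 24 of 29 alternatives, with adjusted p of up to 0.154. Among fits without 1 library, the call ended without chow knockout 3 or 4 (0.0551 and 0.0546). Adrb1 held 25.4, 16.1 and 17.1 CPM in chow knockout against 30.9, 33.0, 25.8 and 35.5 CPM in chow wild-type libraries. On HFD it held 19.4 to 27.7 CPM in knockout and 29.0 to 48.6 CPM in wild-type libraries. Within each diet the groups were separate but not called, at -0.68 ± 0.19 on chow (adjusted p = 0.10) and -0.60 ± 0.16 on HFD (adjusted p = 0.0976). On chow 12.8% of all genes had separate groups, and that share on HFD is not given here. With HFD, 0 rose and 3 fell in the knockout and 0 rose and 4 fell in wild-type mice, with medians of -0.20 and -0.12, where 13.1% and 15.2% of all genes were called lower. The liver X receptor gene Nr1h2 fell in the knockout (-0.42) and in wild-type mice (-0.36), and under scaling by library totals these became -0.15, not called, and 0.12. The other liver X receptor gene, Nr1h3, fell in the knockout (-0.22 ± 0.07, adjusted p = 0.0241), a call that ended without HFD knockout 1 (0.0509) or chow knockout 2 (0.183) and turned to 0.05 under that scaling. The protein kinase A catalytic subunit gene Prkacb fell in the knockout (-0.27 ± 0.06, adjusted p = 0.00441) and in wild-type mice (-0.23 ± 0.06, adjusted p = 0.00546), where scaling by library totals gave 0.24. The knockout call of Prkacb passed in 19 of 20 alternatives, and the value nearest 0 was -0.00588 (highest adjusted p 0.961). Prkaca, for another such subunit, fell in wild-type mice (-0.20 ± 0.07, adjusted p = 0.0459), a call that ended without HFD wild-type 1, 3 or 5 or any 1 chow wild-type library (0.063 to 0.0927) and was 0.27 under that scaling.

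Of 16 receptor partners and co-regulators, 0 were called between genotypes on chow by edgeR and limma-voom (7 at an unadjusted p under 0.05, against 15.2% of all genes). DESeq2 called 2 higher. The median was 0.14, with 13 of 16 above 0. With HFD 0 rose and 5 fell in the knockout, where 12.8% of all genes were called higher and 13.1% lower. Among these 5 were the coactivator gene Ncoa2 (-0.33 ± 0.05, adjusted p = 0.00032) and the corepressor gene Ncor1 (-0.34 ± 0.07, adjusted p = 0.00198). Under scaling by library totals, with a median of all genes of 0.30, these became -0.07 and -0.07 and were not called. Thrap3 (-0.24 ± 0.07, adjusted p = 0.0179) turned to 0.02 there, and its call ended without chow knockout 3 or 4 (0.07 and 0.0649). The retinoid X receptor gene Rxrg (-0.45 ± 0.15, adjusted p = 0.0398) lost its call without HFD knockout 1, 2, 3 or 4 or chow knockout 3 or 4 (0.0539 to 0.156). In wild-type mice 1 rose and 2 fell, against 16.9% and 15.2% of all genes. The riser was Tbl1x, a corepressor complex gene (0.19 ± 0.06, adjusted p = 0.0144). Ncoa2 (-0.15) and Trip11 (-0.17) fell, but were 0.33 and 0.30 under scaling by library totals. The Ncoa2 call ended without HFD wild-type 1 or chow wild-type 2 or 3 (0.0715 to 0.0899), and that of Trip11 without HFD wild-type 1, 2 or 3 or chow wild-type 1, 2 or 4 (0.0513 to 0.0754). Deiodinases contain selenocysteine, and 8 genes for selenoprotein synthesis were tested. Between genotypes on chow 0 were called by edgeR and limma-voom (1 at an unadjusted p under 0.05, against 15.2% of all genes), and 1 was called higher by DESeq2. Secisbp2, which recruits the selenocysteine machinery to the transcript, stood at 0.30 ± 0.07 on chow (adjusted p = 0.0547) and fell with HFD in the knockout (-0.29 ± 0.07, adjusted p = 0.00561), though not under scaling by library totals (-0.03). Sephs1, a selenophosphate synthetase family gene, fell there too (-0.25 ± 0.08, adjusted p = 0.024), a call that ended without HFD knockout 3 or chow knockout 2 or 4 (0.054 to 0.148) and was 0.02 under that scaling. Scly, the selenocysteine lyase gene, fell with HFD in wild-type mice (-0.40 ± 0.11, adjusted p = 0.00935) and stood at 0.07 under that scaling.

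Genes known in rodents to respond to thyroid hormone did not move as 1 group between genotypes. On chow 1 of 18 rose and 0 fell, with a median of -0.05, where 1.06% of all genes were called. The called gene was Ppargc1a, a coactivator of mitochondrial biogenesis that is also induced by cAMP, at 221, 186 and 125 CPM in chow knockout and 54.4, 58.1, 73.5 and 48.7 CPM in chow wild-type libraries (1.59 ± 0.29, adjusted p = 0.0161). Its call passed in 11 of 16 alternatives, with adjusted p of up to 0.148. Among fits without 1 library, the call ended without chow knockout 2 or 3 (adjusted p = 0.0579 and 0.081) and without chow wild-type 2 (0.053). On HFD 0 of 18 were called by edgeR and limma-voom (4 at an unadjusted p under 0.05, against 12.7% of all genes). DESeq2 called Bcl3 lower there (-0.52 ± 0.12 and adjusted p = 0.07 by edgeR). None of the 5 other lists had a call on HFD by edgeR either, where 0.536% of all genes were called. At most 3 genes a list had an unadjusted p under 0.05, against 12.7% of all genes, and at most 1 a list was called by DESeq2.

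With HFD, 3 of 18 response genes rose and 9 fell in the knockout (median -0.41), and 3 rose and 6 fell in wild-type mice (median -0.08). Of all genes 12.8% rose and 13.1% fell in the knockout, and 16.9% rose and 15.2% fell in wild-type mice, so the counts that rose are near those shares. Hr, a nuclear receptor corepressor gene induced by thyroid hormone in rodent brain, held 28.0 to 66.5 CPM in HFD knockout against 21.4 to 23.3 CPM in chow knockout libraries. In wild-type mice it held 45.9 to 77.7 CPM on HFD against 20.3 to 31.0 CPM on chow. Hr rose 2.24-fold in the knockout (adjusted p = 0.00189) and 2.30-fold in wild-type mice (adjusted p = 0.000478), with separate groups in both. In wild-type mice 13.6% of all genes were higher in every HFD library, and that share in the knockout is not given here. St3gal5, a ganglioside synthase gene, rose 2.48-fold in the knockout (1.31 ± 0.23, adjusted p = 0.000827). The lipogenic gene Acaca fell in the knockout (-0.70 ± 0.16) and in wild-type mice (-0.98 ± 0.15). Fasn, which encodes fatty acid synthase, fell in wild-type mice (-1.04 ± 0.17). Srebf1, a regulator of lipid synthesis genes, fell there as well (-0.68 ± 0.12, adjusted p = 0.000541), and was -0.21 and not called under scaling by library totals. Ppargc1a fell in the knockout (-1.13 ± 0.27, adjusted p = 0.00677), while the Dio2 value of -0.99 was not called.

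Genes whose levels followed Dio2 most closely were taken from 11478 tested genes by Pearson correlation of log2 levels over the 17 libraries. The libraries share groups, depth and tissue make-up, so the correlations are descriptions. The 5 nearest were Mfsd2a (0.943), Aff4 (0.904), Ippk (0.897), G3bp2 (0.893) and Noct (0.889). They were picked by levels that include the group differences of Dio2. Genotype differences like those of Dio2 are thus partly built in, and their tests and pass counts are descriptions too. Mfsd2a, a carrier of lysophosphatidylcholine known to be induced in brown fat by cold, held 16.4, 10.1 and 11.4 CPM in chow knockout against 0.93, 1.01, 2.12 and 0.423 CPM in chow wild-type libraries. Its groups were far apart, but it was not called on chow (3.49 ± 0.85, adjusted p = 0.0579). Noct, a circadian deadenylase-family gene, held 133, 149 and 150 CPM in chow knockout against 45.4, 57.1, 63.2 and 53.8 CPM in chow wild-type libraries (1.39 ± 0.15, adjusted p = 0.000222). The Noct call passed in 16 of 16 alternatives, and its genotype effect was smaller on HFD by -1.15 ± 0.19 (adjusted p = 0.0388, passing in 14 of 29). That interaction call ended without chow knockout 2, 3 or 4, chow wild-type 1, 2 or 4, HFD knockout 2 or 4, or HFD wild-type 2 or 4 (adjusted p of 0.0528 to 0.103).

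**Figure D5:**
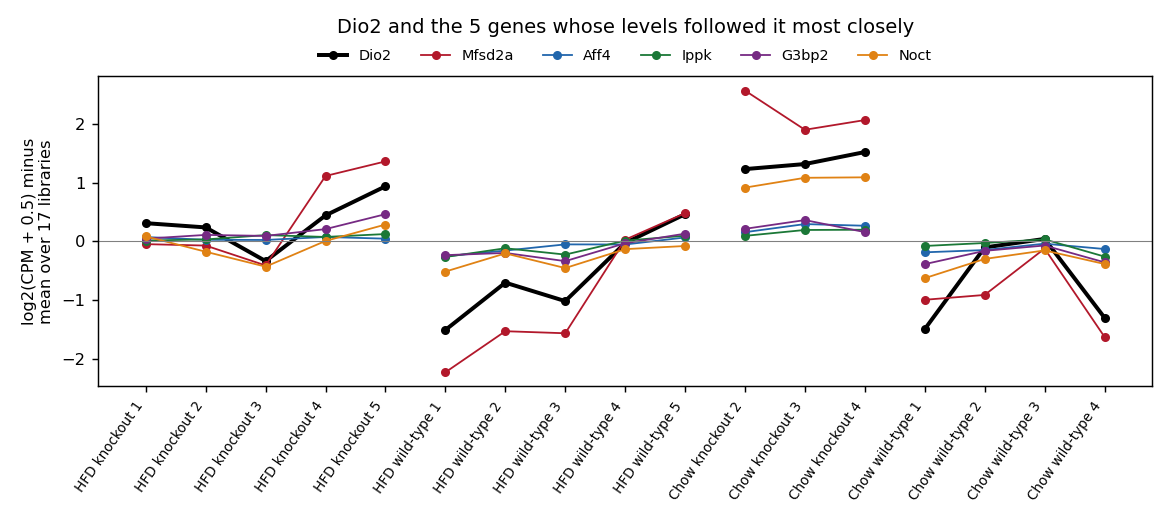
Log2(CPM + 0.5) of Dio2 and its 5 nearest genes in each library, each centred on its mean over the 17 libraries, in the order HFD knockout, HFD wild-type, chow knockout and chow wild-type. Each line is 1 gene. Dio2, Mfsd2a, Aff4 and Noct stand highest in the 3 chow knockout libraries, while for Ippk and G3bp2 at least 1 HFD knockout library lies above a chow knockout library.

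Group differences were then removed by subtracting each group's mean. The nearest genes within groups were Tnpo3 (0.884), Mob1b (0.884), Grpel2 (0.882), Rb1cc1 (0.876) and Snx10 (0.876), and none of these was called between genotypes on chow (adjusted p of 0.267 to 0.695). No gene was in both sets of 5. The other tested members did not follow Dio2 across the libraries, with a correlation of 0.431 for Thrb, -0.357 for Thra and 0.0825 for Slc16a10. None of the RefSeq windows found for these 10 genes held TGACGTCA.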

How the data were processed

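RNA was measured by sequencing in 17 brown fat libraries made with a TruSeq RNA kit that does not mark strand, per the labels' protocols. The authors deposited 1 table of whole-number counts per gene. FastQC, STAR 2.7.8a, RSEM 1.3.0, DESeq and GRCm39 are named without a role, per the submitters' processing notes, so the counts may be rounded RSEM estimates. The gene annotation and filters behind them are not stated.

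The tests used edgeR 4.0.16 (R 4.3.3): filterByExpr with a minimum count of 10, TMM scaling, 1 coefficient per group over all 17 libraries, and the two-sided quasi-likelihood F test with Benjamini-Hochberg adjustment over 17717 genes. Alternatives used DESeq2 1.42.0, limma-voom from limma 3.58.1, other scalings and filters, a replicate block, each library left out in turn and marker scores. No 2 columns were identical, and the highest correlation between libraries was 0.9963. Exon lengths came from a GENCODE annotation of GRCm38 and promoters from RefSeq. The model was tested on simulated data.

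All 7 members are reported. Named pathway genes are the called members of each list and comparison, at most 4 by smallest adjusted p, and the nearest to a call where fewer than 2 were called. Not all of those without a call are printed. Members and lists were chosen with earlier results of these data known. Some genes of the pathway lists are counted but not reported here by name.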

Additional observations from a re-analysis of the deposited data

Results flagged for a closer look

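In all, 28 groups of levels were tested for 1 library far from the rest, from the members and from Nr1d1, Slc3a2 and Ppargc1a. The 5 picked out were all of members. Chance picks out about 1 in 20 for normally distributed values, a rate that does not hold for counts near 0. Dio1 in HFD wild-type 5 stood at 0.296 CPM, with the next library of its group at 0.0626 CPM. Thrb in HFD wild-type 2 stood at 47.4 CPM, with the next at 39.6 CPM. Slco1c1 stood apart in HFD knockout 4 (0.131 CPM, next 0.031 CPM), in HFD wild-type 1 (0.0599 CPM, next 0.0128 CPM) and in chow wild-type 4 (0.0302 CPM, from 1 count, with the others at 0).

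Of 54 genes tested for a genotype effect that differed between HFD and chow, 3 were called by edgeR, where 0.0903% of all genes were. The 54 include the deleted gene and genes picked by their results in these same libraries, so the count is a description. For Dbi, the deleted gene, the effect on HFD minus that on chow was 0.942 on the log2 scale (adjusted p = 0.0377). It passed in 15 of 29 alternatives, and ended without chow knockout 2, 3 or 4, chow wild-type 1 or 2, HFD knockout 2, or HFD wild-type 1 or 2. For Slc3a2 the value was -0.935 and for Noct -1.15, and both passed in at most 15 of 29 alternatives.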

How the results depend on the processing

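Main counts of called genes were 187 for genotype on chow, 95 for genotype on HFD, 5685 for diet in wild-type, 4579 for diet in knockout, 16 for the interaction and 506 for genotype averaged over diets. With DESeq2 they were 608 on chow, 588 on HFD, 196 for the interaction and 1117 averaged. With library totals they were 421 on HFD (33 higher, 388 lower, against 55 and 40), 10923 for diet in wild-type (10497 higher, 426 lower, against 2986 and 2699), 5875 for diet in knockout (5322 higher, 553 lower, against 2260 and 2319), 131 on chow (83 higher, 48 lower, against 92 and 95), 63 for the interaction (7 and 56, against 8 and 8) and 272 averaged (60 and 212, against 233 and 273). With no low-count filter they were 122 on chow, 57 on HFD and 331 averaged, and with limma-voom 81, 192 and 250, with 10 for the interaction. With only the 2 groups compared, HFD had 17. Left out for muscle sums above 2000 CPM, HFD wild-type 1 and HFD knockout 2 gave 16 on HFD, 0 for the interaction (1710 at an unadjusted p under 0.05) and 223 averaged. Without HFD knockout 5, for its hepatocyte sum above 300 CPM, HFD had 41 and the interaction 33. Lower limits were chosen after seeing the data. Muscle above 1000 CPM, among HFD libraries alone, gave 5 on HFD, 0 for the interaction (1270 unadjusted) and 23 averaged. Hepatocyte above 200 CPM gave 19 on HFD and 322 averaged. Without chow wild-type 1 and 2 there were 16 on chow, 1 for the interaction and 107 averaged. With both scores in the model there were 34 on chow, 17 on HFD, 0 for the interaction (1469 unadjusted) and 50 averaged. With the run of library numbers as a term, which differs from genotype on HFD in knockout 1 alone, HFD had 1. Leaving out 1 library at a time gave 23 to 185 on chow, 20 to 207 on HFD, 0 to 33 for the interaction and 133 to 699 averaged.

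Dio2 kept its direction on chow and averaged over diets. Its chow value was 2.08 with limma-voom, 1.80 with the replicate block, 1.84 without chow wild-type 1 and 2, and 1.63 with the scores, and none of these was called. Its averaged value was 1.07 without the muscle libraries, 1.31 without chow wild-type 1 and 2 and 1.17 with the scores. For diet in knockout Dio2 became called at -0.98 with only those groups and at -1.26 without the hepatocyte libraries. Without 1 library at a time Dio2 ran from 1.71 to 2.19 on chow and from 1.24 to 1.51 averaged.

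Among values called in either fit, signs turned under library totals. For diet in wild-type these were Thra (0.38), Usp33 (0.0155), Ncoa2 (0.33), Sepsecs (0.30), Nr1h2 (0.12), Prkacb (0.24), Prkaca (0.27), Trip11 (0.30) and Scly (0.0747), and for diet in knockout Ube2j1 (0.0739), Nr1h3 (0.0504), Sephs1 (0.0188) and Thrap3 (0.0204). Of members called in neither fit, Thra (0.12) and Slc16a10 (0.25) for diet in knockout, Thrb for genotype on HFD (-0.12) and Slc16a10 averaged over diets (-0.02) turned sign as well. Uncalled member values near 0 also turned under other alternatives, and Dio2 for diet in wild-type ran from -0.16 to 0.63. That scaling moved the median of all genes to 0.493 and 0.297 in these comparisons. Why the other alternatives moved values was not tested.

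Samples that share a replicate number do not deviate together (correlations of -0.241 to -0.113 on chow and -0.74 to 0.323 on HFD), and 0 of 3 chow and 0 of 5 HFD knockout libraries correlated best with their own number. With the replicate block there were 39 calls on chow, 125 on HFD, 0 for the interaction (1760 unadjusted) and 266 averaged. Depth limits Dio1, Dio3 and Slco1c1, whose counts were too low for a difference to be detectable.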
